A study of Mus musculus with 6 samples.

Results

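The genes described here encode the sensors, adaptor and transcription factors of the response to foreign RNA, together with 2 of its products. They are *Ddx58*, *Ifih1*, *Mavs*, *Irf3*, *Irf7*, *Irf9*, *Stat2*, *Isg15* and *Oasl2*, taken by symbol from the deposited table, and all 9 were found among its 19489 genes. Messenger RNA was sequenced in 6 libraries of mouse embryonic stem cells (ESCs) grown in serum and LIF. OE libraries came from ESCs that carried *Dppa3*, a maternal factor, on a vector with the CAG promoter, and Con libraries from ESCs with the empty vector. OE-1, OE-2 and OE-D7 were set against Con-1, Con-2 and Con-D7. The label D7 is not explained in the sources, and the 4 libraries without it are called D0 here. The study made stable lines from picked colonies after puromycin selection, so a line may be 1 clone, and it also used transient transfection. The sources do not say which applied to these libraries or which ESC line was used. The study states in general that its results come from independent experiments, but not whether these libraries were separate cultures. P-values then measure only the spread between these libraries, which may be technical.

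RIG-I (encoded by *Ddx58*) and MDA5 (*Ifih1*) are helicases that bind double-stranded RNA or uncapped RNA ends in the cytoplasm and signal through MAVS on the mitochondrial surface. The kinase TBK1 then activates IRF3 and IRF7, which turn on type I interferon genes. Interferon acts through its receptor on a complex that holds STAT2 and IRF9 and binds an interferon-stimulated response element (ISRE) in the promoters of interferon-stimulated genes, *Isg15* and *Oasl2* among them. Mouse ESCs are known for a weak interferon response compared with differentiated cells.

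The ISRE is the sequence through which interferon-stimulated genes answer interferon, so the matches found near the start sites of the 9 genes are shown. The motif searched, on both strands, was GAAA followed by any 2 bases and again GAAA, in RefSeq windows (GRCm38.p6) of 250 bases before to 50 bases after a start site. Of the 9 genes, 4 held it (44.4%), against 573 of 15244 genes of the table with a window (3.76%) and 3.44% of all 32851 windows. Capitals mark the motif, and each stretch of 30 bases reads 5′ to 3′ on the strand that shows it in this form.
*Isg15*, chr4:156200871-156200900, minus strand: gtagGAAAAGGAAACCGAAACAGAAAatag
*Stat2*, chr10:128270266-128270295, minus strand: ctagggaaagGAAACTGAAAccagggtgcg
*Ddx58*, chr4:40239804-40239833, plus strand: ctggccatagGAAATCGAAActgcctcagg
*Ifih1*, chr2:62646206-62646235, minus strand: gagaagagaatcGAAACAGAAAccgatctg
*Isg15* held 3 overlapping matches, at positions -78 to -57 from its start site and on the strand of the gene. The match of *Stat2* lay at -222 to -213 and that of *Ddx58* at 3 to 12, both on the strand opposite to the gene. The window of *Stat2* (chr10:128270248-128270547) ended before the start of the gene in GENCODE (128270559). Its positions thus hold for the RefSeq start site only, and the match lies further from the GENCODE start. The match of *Ifih1* lay at 33 to 42, within the start of the transcript as is that of *Ddx58*. The windows of *Mavs*, *Irf3*, *Irf7*, *Irf9* and *Oasl2* did not hold these letters. A match is a description of the sequence, and binding was not measured.

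Estimated counts summed to between 17408954 and 18176939 per library. *Dppa3* stood at 279, 279 and 131 FPKM in OE-1, OE-2 and OE-D7, against 6.09, 3.89 and 26.2 FPKM in Con-1, Con-2 and Con-D7 (FPKM is a level scaled for the length of the transcript and for depth). All 3 OE libraries thus lay above all 3 Con libraries, as labelled. Markers of other cell types were higher in the D7 libraries. Summed FPKM of 10 trophectoderm and epithelial markers was 804 to 1401 in D7, against 48.0 to 109 in D0, with 9 of 10 above all D0 libraries. The sum of 14 fibroblast or feeder markers was 203 to 433 in D7, against 38.2 to 65.2 in D0, with 10 of 14 above. Primitive endoderm markers summed to 190 to 284 in D7, against 172 to 186 in D0 (8 of 10 above), and ESC markers to 3608 to 3612, against 3722 to 3845 (7 of 10 below). Immune cell markers summed to 33.0 to 35.7 in D7 and 55.1 to 75.8 in D0, a sum held mostly by *Laptm5* and *Cd68*, and of the 12 markers 2 lay above and 3 below all D0 libraries. *Ptprc* and *Adgre1*, which define leukocytes and macrophages, stayed at or under 0.1 FPKM in every library. The 2 that lay above were *Csf1r* and *Lyz2*, among several myeloid markers of the list. *Csf1r* had 1.94 and 0.79 FPKM in OE-D7 and Con-D7, against 0 to 0.03 FPKM in D0. *Lyz2* had 0.75 and 0.62 FPKM in OE-D7 and Con-D7, against 0 to 0.05 FPKM in D0. In edgeR without the filter on low values their adjusted p-values were 0.0037 and 0.0318. Of the 3 immune cell markers that passed that filter, 0 were called higher in D7 and 1 was called lower. Over all genes tested, 6.77% were called higher and 3.06% lower.

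The 9 genes fell into an expressed set and a nearly silent set. *Irf3*, *Stat2*, *Mavs* and *Ddx58* averaged 12.3, 12.2, 10.3 and 9.68 FPKM over the 6 libraries, and their ranges overlapped. *Irf9* averaged 4.02 FPKM, above 50.5% of the genes in the table, and only the D7 values of *Ddx58* reached its range. *Isg15*, *Oasl2*, *Irf7* and *Ifih1* averaged 0.775, 0.355, 0.227 and 0.077 FPKM, each below every value of *Irf9*. Neighbours in this order overlapped, whereas all values of *Ifih1* lay below all values of *Isg15*. Genes with the ISRE lay in both sets, *Stat2* and *Ddx58* in the expressed one and *Isg15* and *Ifih1* in the nearly silent one.

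**Figure D1:**
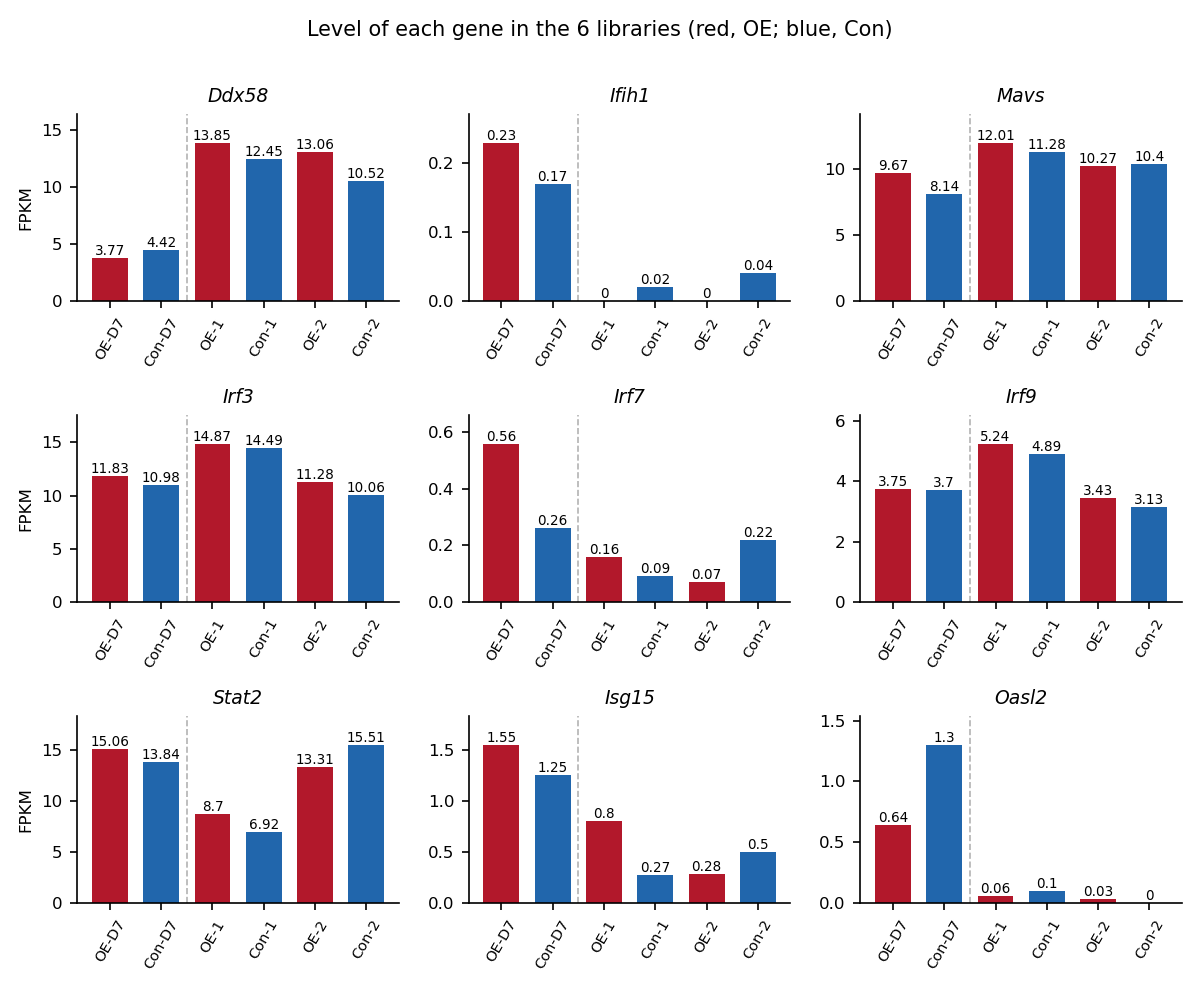
FPKM of each of the 9 genes in the OE (red) and Con (blue) libraries, 1 bar per library, with the D7 pair left of the dashed line and a separate scale for each gene. *Ddx58* is lowest in OE-D7 and Con-D7 (3.77 and 4.42 FPKM), whereas *Ifih1*, *Irf7*, *Isg15* and *Oasl2* are highest there.

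The sensors differed in direction in the D7 libraries, *Ddx58* lying lower and *Ifih1*, on few reads, higher than in D0. *Ddx58* (GRCm38 chr4:40203773-40239828, minus strand) had 3.77 and 4.42 FPKM in OE-D7 and Con-D7, against 13.85, 12.45, 13.06 and 10.52 FPKM in OE-1, Con-1, OE-2 and Con-2. Both D7 values lay far below all D0 values, with means of 4.10 ± 0.46 (SD, n = 2) in D7 and 12.5 ± 1.42 (SD, n = 4) in D0. These values rest on 721 reads in D7 and 4451 reads in D0. Of the 9 genes, 6 passed the filter on low values and were tested in this comparison, *Ifih1*, *Irf7* and *Oasl2* not among them. There 1357 of 13809 genes tested (9.83%) were called, 422 of them lower (3.06%). Of the 6, *Ddx58* was the 1 called. Its log2 fold change was -1.61 (SE 0.19, adjusted p = 0.0107, edgeR quasi-likelihood test with Benjamini-Hochberg adjustment). D7 is 1 pair against 2 pairs, and libraries of a pair varied together. With the pair as a random block in limma-voom the log2 fold change of *Ddx58* was -1.61 (SE 0.34) and the adjusted p 0.0706, so the call was lost, in a fit that called 235 genes (1.7%). The same fit without the filter on low values gave *Ddx58* an adjusted p of 0.0377. Without OE-D7 its edgeR adjusted p was 0.291 and without Con-D7 0.111, with log2 fold changes of -1.39 and -1.81.

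*Ifih1* (chr2:62595798-62646255, minus strand) was almost unread in D0. It had 13 and 14 reads in OE-D7 and Con-D7, against 0, 1, 0 and 3 reads in OE-1, Con-1, OE-2 and Con-2. In FPKM this was 0.23 and 0.17 in the D7 libraries, against 0 to 0.04 in D0, without overlap. Scaled by library totals, the 27 reads of D7 against 4 of D0 gave a ratio of 13.7 (exact 95% interval 4.77 to 53.9). These intervals sum reads over libraries and cover counting error only, so the spread between libraries and pairs is not in them. PCR copies were not told apart, so even the counting error may be understated. *Ifih1* lay under the filter on low values (a mean of 0.5 FPKM). Without the filter its log2 fold change was 3.71 (SE 0.88, edgeR adjusted p = 0.0531). DESeq2 without the filter, also without a pair term, gave an adjusted p of 0.0463 and called 2761 of 19423 genes. With the random pair block in limma-voom the adjusted p of *Ifih1* was 0.208.

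*Mavs* (chr2:131234063-131248025, plus strand), the adaptor shared by both sensors, varied little. It had 9.67 and 8.14 FPKM in OE-D7 and Con-D7, against 12.01, 11.28, 10.27 and 10.40 FPKM in OE-1, Con-1, OE-2 and Con-2. Both D7 values lay below the D0 values, though by less than 1 FPKM in the case of OE-D7 and OE-2. The log2 fold change of D7 over D0 was -0.31 (SE 0.16, edgeR adjusted p = 0.262).

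Of the interferon regulatory factors, *Irf3*, the constitutive factor downstream of MAVS, overlapped between D7 and D0. It had 11.83 and 10.98 FPKM in OE-D7 and Con-D7, against 14.87, 14.49, 11.28 and 10.06 FPKM in OE-1, Con-1, OE-2 and Con-2. *Irf7*, which interferon itself induces and which amplifies the response, had 18 and 8 reads in OE-D7 and Con-D7, against 5, 3, 2 and 7 reads in OE-1, Con-1, OE-2 and Con-2. In FPKM *Irf7* stood at 0.56 and 0.26 in D7, against 0.07 to 0.22 in D0, so the groups did not overlap, but Con-D7 exceeded Con-2 by 1 read. The ratio of summed reads was 3.11 (exact 95% interval 1.62 to 6.10), and the edgeR fit without the filter gave a log2 fold change of 1.52 (SE 0.66, adjusted p = 0.203). *Irf3* lies at chr7:44997648-45002848 and shares exonic bases with *Bcl2l12* on the opposite strand, and *Irf7* at chr7:141262706-141266481 shares them with *Phrf1*. Whether counting used strand is not stated, so reads of these neighbours may enter the low count of *Irf7*.

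*Irf9* and *Stat2* encode subunits of the interferon-activated complex, and neither separated D7 from D0. *Irf9* (chr14:55603571-55610030, overlapping *Rnf31* on the same strand) had 3.75 and 3.70 FPKM in OE-D7 and Con-D7, against 5.24, 4.89, 3.43 and 3.13 FPKM in OE-1, Con-1, OE-2 and Con-2. It shares exonic bases with *Rnf31*, so reads of that gene may enter its level even if counting used strand. *Stat2* (chr10:128270559-128292849) had 15.06 and 13.84 FPKM in OE-D7 and Con-D7, against 8.70, 6.92, 13.31 and 15.51 FPKM in OE-1, Con-1, OE-2 and Con-2. The main gap in both genes was between pair 1 and pair 2, and it ran in opposite directions. *Stat2* in replicate 2 was 1.53 times its replicate 1 level in OE and 2.24 times in Con. *Irf9* in replicate 2 was 0.655 times its replicate 1 level in OE and 0.640 times in Con. *Irf3* shared the direction of *Irf9*, at 0.759 times in OE and 0.694 times in Con. The log2 fold changes of D7 over D0 were 0.37 (SE 0.32) for *Stat2*, -0.15 for *Irf9* and -0.13 for *Irf3*, with edgeR adjusted p-values of 0.47, 0.776 and 0.753.

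Of the products of the pathway, *Isg15* and *Oasl2* were near 0 in D0 and read more often in D7. Other interferon-stimulated genes, described below, were not all low in D0. *Isg15* (chr4:156199424-156200818), a ubiquitin-like protein that is conjugated to other proteins after interferon, had 1.55 and 1.25 FPKM in OE-D7 and Con-D7, against 0.80, 0.27, 0.28 and 0.50 FPKM in OE-1, Con-1, OE-2 and Con-2. All D0 values lay below both D7 values, on 36 reads in D7 and 25 in D0, a ratio of 2.92 (exact 95% interval 1.71 to 5.08). *Isg15* passed the filter over 6 libraries only through its D7 values, and its log2 fold change was 1.52 (SE 0.49, edgeR adjusted p = 0.106). *Oasl2* (chr5:114896936-114912234), of the oligoadenylate synthetase family that answers double-stranded RNA, had 0.64 and 1.30 FPKM in OE-D7 and Con-D7, against 0.06, 0.10, 0.03 and 0 FPKM in OE-1, Con-1, OE-2 and Con-2. Its estimated counts were 24.6 and 57.0 in OE-D7 and Con-D7, against 2.02, 3.83, 1 and 0 in OE-1, Con-1, OE-2 and Con-2. The groups were far apart, at a read ratio of 23.8 (exact 95% interval 11.0 to 61.0). *Oasl2* lay under the filter, and without it the log2 fold change was 4.36 (SE 0.72, edgeR adjusted p = 0.0194) in a fit that called 1598 of 19423 genes (8.23%), 1156 of them higher (5.95%). With the random pair block in limma-voom the adjusted p of *Oasl2* was 0.0962 and the call was lost, in a fit that called 460 genes (2.37%). DESeq2 without the filter gave an adjusted p of 0.000813, in a fit without a pair term that called 2761 of 19423 genes.

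Both D7 libraries thus lay above all 4 D0 libraries for *Ifih1*, *Irf7*, *Isg15* and *Oasl2*, or 4 of the 9 genes, where 23% of the 19489 genes in the table did so. They lay below for *Ddx58* and *Mavs*, or 2 of 9, where 17.9% of all genes did so. With 2 libraries against 4, the exact two-sided permutation test on log2(FPKM + 0.5), as run here, doubles the p of a single direction. It thus cannot give less than 0.133, which is the p of each of these 6 genes. That p follows from the lack of overlap by which the 6 were counted, so it adds nothing to it. The test also ignores that libraries of a pair varied together. *Irf3*, *Irf9* and *Stat2* gave exact p-values of 0.667, 0.8 and 0.4. The marker sums for epithelium, fibroblasts and primitive endoderm given above moved with the D7 label, and their part in these differences was not tested. In bulk RNA, fewer cells of a type and less RNA per cell cannot be told apart.

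**Figure D2:**
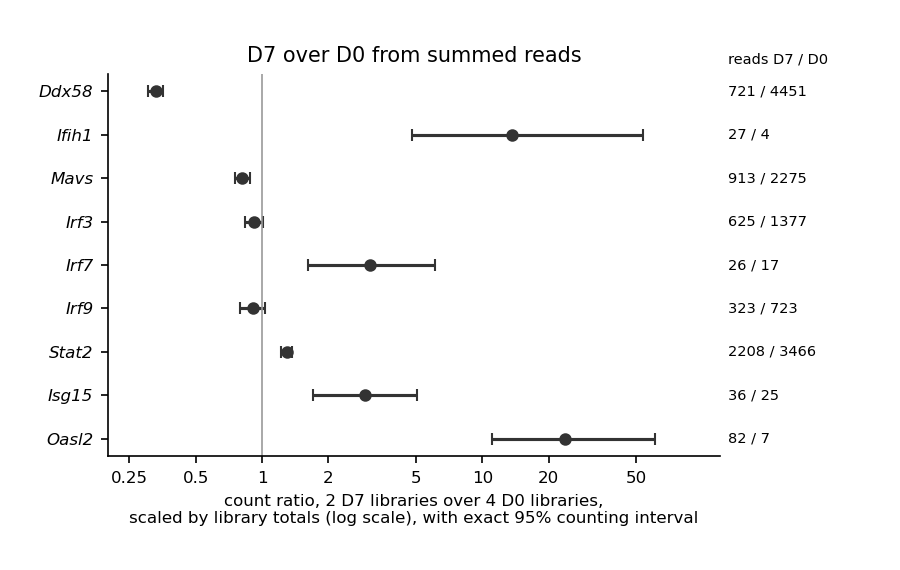
Ratio of summed reads in the 2 D7 libraries over the 4 D0 libraries, scaled by library totals, on a log axis, with bars for the exact 95% counting interval and the reads of D7 and D0 at the right. *Oasl2* (23.8) and *Ifih1* (13.7) lie far above 1 on few D0 reads, and *Ddx58* (0.329) lies below 1 on 721 and 4451 reads. The bars leave out the spread between libraries. That of *Stat2* (1.225 to 1.364) lies above 1 although its FPKM values in D7 and D0 overlap.

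OE and Con values overlapped in each of the 9 genes, which does not show that *Dppa3* overexpression left them unchanged. Over replicates 1 and 2, 5 of the 9 genes passed the filter, and 0 were called. edgeR without a pair term called 0 of 13494 genes (0.0%), with 62 at an unadjusted p under 0.05, and DESeq2 called 2. Since libraries of the same number varied together, the fit with the replicate pair as a block was also made, and it called 120 genes (0.889%), 0 of them among the 9. In that blocked fit the log2 fold change of OE over Con was 0.19 (95% interval -0.01 to 0.39) for *Ddx58*, 0.05 (-0.23 to 0.33) for *Irf3*, 0.09 (-0.27 to 0.45) for *Irf9*, 0.02 (-0.25 to 0.28) for *Stat2* and 0.00 (-0.25 to 0.26) for *Mavs*. The adjusted p-values of these genes in that edgeR fit ranged from 0.654 for *Ddx58* to 0.999 for *Mavs*. The intervals thus leave room for changes of either sign in each of these genes. When the D7 pair was added and its label fitted as a term, 6 of the 9 genes passed the filter and 0 were called, as were 0 of 13809 genes (0.0%), with 179 at an unadjusted p under 0.05 and 7 called by DESeq2. The blocked fit over 6 libraries called 1 gene (0.00724%), not among the 9, and gave *Isg15* a log2 fold change of 0.30 (95% interval -0.77 to 1.38) and the other 5 genes 0.04 to 0.06. *Ifih1*, *Irf7* and *Oasl2* lay under the filter. Without it, the blocked fit over 6 libraries gave *Ifih1* -0.67 (-2.505 to 1.165), *Irf7* 0.317 (-1.157 to 1.792) and *Oasl2* -1.045 (-2.157 to 0.066). Over 4 libraries that fit gave *Ifih1* -4.097 (-9.643 to 1.448), *Irf7* -0.522 (-2.679 to 1.634) and *Oasl2* -0.353 (-3.624 to 2.918). These wide intervals rest on few reads.

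Within pairs, the order of OE and Con changed for most genes. The log2 ratio of OE over Con, on FPKM + 0.5, for *Ddx58* was 0.15 in pair 1, 0.30 in pair 2 and -0.20 in the D7 pair. For *Stat2* it was 0.31, -0.21 and 0.12, and for *Isg15* 0.76, -0.36 and 0.23, in the same order of pairs. *Irf3* and *Irf9* were higher in OE in all 3 pairs, by log2 ratios of 0.04 to 0.16 and 0.02 to 0.12, as were 21.6% of genes with a mean of at least 0.5 FPKM. These ratios were of the size of the median absolute ratio over all such genes, which was 0.12 in pairs 1 and 2 and 0.17 in the D7 pair. *Irf7* had 5, 2 and 18 reads in OE-1, OE-2 and OE-D7, against 3, 7 and 8 reads in Con-1, Con-2 and Con-D7, and *Oasl2* was lower in OE-D7 than in Con-D7 (24.6 against 57.0 estimated counts). The 3 OE values overlapped the 3 Con values in all 9 genes, where 1.98% of all genes had OE above Con and 0.826% OE below Con without overlap. The exact two-sided permutation p-values of 3 libraries against 3, which cannot go below 0.1, ranged from 0.5 for *Irf3* to 1.0 for *Ifih1*. That test did not use the pairs. The OE effect on *Ddx58* in the D7 pair minus that in D0 was -0.43 on the log2 scale (SE 0.34, edgeR adjusted p = 1.0), and -0.44 (SE 0.20, adjusted p = 0.368) with the replicate block, in fits that called 0 of 13809 genes (0.0%) and 199 genes (1.44%). The other 5 genes tested had differences of -0.10 to 0.22 with the block, and 0 of them were called.

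**Figure D3:**
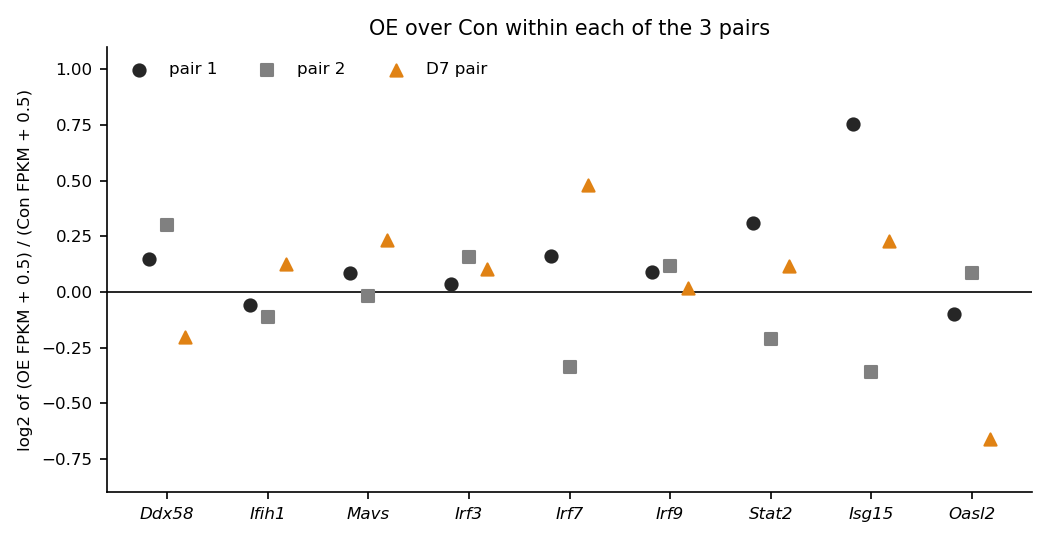
log2 ratio of OE over Con within pair 1, pair 2 and the D7 pair for each gene, on FPKM + 0.5, with 1 point per pair and no error within a pair. Points of a gene lie on both sides of 0 except for *Irf3* and *Irf9*, whose ratios run from 0.02 to 0.16.

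The rest of the interferon system was read from lists written from general knowledge. The ligands themselves were nearly absent. Of 21 interferon genes named, 10 were in the table, and together they had 18.4 estimated counts over the 6 libraries, at most 6 in 1 gene, so none passed the filter. Without the filter 6 of them entered the edgeR fit of D7 against D0, and 0 were called (adjusted p of 0.472 or more). The receptor chains *Ifnar1* and *Ifnar2* were present, at 15.88 and 14.37 FPKM and at 9.96 and 7.04 FPKM in OE-D7 and Con-D7, against 12.28 to 13.71 and 8.41 to 12.17 FPKM in D0. In the OE comparisons over 4 and over 6 libraries, 0 genes of these lists were called, with or without the replicate block.

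In D7, 1 of 17 tested sensors and adaptors was called, where 9.83% of all genes tested were. It was *Ddx58*, and the median log2 fold change of that list was -0.31, against -0.03 over all genes tested. Over its 21 genes in the table, D7 lay above all D0 values in 3 (14.3%) and below in 9 (42.9%). Of all genes, 23% lay above and 17.9% below. *Trim25*, which ubiquitinates RIG-I, had 28.55 and 28.24 FPKM in OE-D7 and Con-D7, against 36.40 to 41.73 FPKM in D0 (log2 fold change -0.49, edgeR adjusted p = 0.077). *Cgas*, the DNA sensor, had 0.34 and 0.62 FPKM in OE-D7 and Con-D7 and 0.82 to 1.40 FPKM in D0 (adjusted p = 0.108). *Ddx60* ran the other way, at 0.96 and 1.45 FPKM in D7 and 0.22 to 0.51 FPKM in D0 (adjusted p = 0.0632), and the RNA helicase *Dhx9* overlapped between D7 and D0. Among the kinases and factors 1 of 17 was called, where 9.83% of all genes tested were. It was *Irf2*, a factor that binds the same element as IRF1, which rose to 1.87 and 1.22 FPKM in OE-D7 and Con-D7, against 0 to 0.12 FPKM in D0 (log2 fold change 4.61, edgeR adjusted p = 0.0174, and 0.17 with the random pair block in limma-voom). *Irf1* had 13.12 and 19.77 FPKM in OE-D7 and Con-D7, against 6.42 to 9.49 FPKM in D0 (adjusted p = 0.0685). The kinase *Tbk1* and its adaptor *Azi2* differed by 0.26 and 0.17 on the log2 scale, with adjusted p-values of 0.203 and 0.331. Over the 19 genes of that list in the table, D7 lay above all D0 values in 7 (36.8%) and below in 2 (10.5%).

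Of 15 receptors and inhibitors of signalling, *Ifngr2*, a chain of the interferon gamma receptor, rose and *Socs3*, a feedback inhibitor of JAK-STAT signalling, fell, where 9.83% of all genes tested were called. *Ifngr2* had 10.61 and 9.61 FPKM in OE-D7 and Con-D7, against 2.85 to 5.12 FPKM in D0, and *Socs3* 20.19 and 13.00 FPKM, against 51.92 to 134.69 FPKM in D0 (edgeR adjusted p = 0.027 and 0.0316). With the random pair block in limma-voom their adjusted p-values were 0.161 and 0.101, and both calls were lost. The phosphatase gene *Ptpn2* overlapped between D7 and D0.

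Interferon-stimulated genes that passed the filter did not move together. Of 57 tested, 4 were called higher and 3 lower, where 6.77% of all genes tested were higher and 3.06% lower. Of the 57, 26 had a log2 fold change above 0, and the median was -0.06. Genes under the filter are not in these counts. Without it, *Gbp3*, *Gbp7*, *Rsad2* and *Ifit1* were also called higher, on low values. Log2 fold changes of these genes were 4.18, 3.17, 2.33 and 4.50 (edgeR adjusted p = 0.00971, 0.00779, 0.022 and 0.0475). *Ddx58*, *Xaf1* and *Parp14* were called lower in that fit, which had no pair term and called 5.95% of all genes higher. *Gbp2*, an interferon-induced GTPase, had 6.95 and 7.27 FPKM in OE-D7 and Con-D7, against 0.11 to 0.32 FPKM in D0 (log2 fold change 5.14, edgeR adjusted p = 0.00467, and 0.0242 with the random pair block). *Lgals9*, *Lgals3bp* and the chemokine gene *Cxcl10* rose, with log2 fold changes of 1.90, 1.66 and 2.46. *Xaf1* and *Parp14* fell, with log2 fold changes of -2.06 and -1.33 and *Xaf1* at 6.26 and 7.42 FPKM in OE-D7 and Con-D7, against 22.43 to 33.82 FPKM in D0. *Ifitm2*, the most abundant of the list, had 276.85 and 267.01 FPKM in OE-D7 and Con-D7, against 316.96 to 354.84 FPKM in D0 (adjusted p = 0.128). The list shares *Ddx58*, one of its 3 lower calls, with the sensors, and it also holds *Irf9*, *Stat2* and *Isg15*. Over all 82 genes of the list in the table, D7 lay above all D0 values in 25 (30.5%) and below in 16 (19.5%), against 23% and 17.9% of all genes. Of its members with a RefSeq window, 35 of 66 (53.0%) held the ISRE, and the median D7 log2 fold change was 0.05 in the 24 tested with it and -0.20 in the 24 tested without it. Over all genes tested with a window, the median was -0.04 both in the 376 with it and in the 10602 without it.

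Antigen presentation genes lay mostly higher in D7. Of 18 tested, 17 had a log2 fold change above 0, the median was 0.56, 3 were called higher and 0 lower, where the median over all genes tested was -0.03 and 6.77% were called higher and 3.06% lower. Over the 18 genes, D7 lay above all D0 values in 10 (55.6%) and below in 1 (5.6%), against 23% and 17.9% of all genes. *Psmb8*, an immunoproteasome subunit, had 1.33 and 2.84 FPKM in OE-D7 and Con-D7, against 0 to 0.09 FPKM in D0 (log2 fold change 5.33, edgeR adjusted p = 0.00793). *Tapbp*, which loads peptides on MHC class I, had 17.73 and 13.68 FPKM in OE-D7 and Con-D7, against 8.48 to 9.29 FPKM in D0, and the proteasome activator gene *Psme2* 35.79 and 35.90 FPKM, against 23.49 to 25.44 FPKM in D0 (adjusted p = 0.0372 and 0.0496). The peptide transporter gene *Tap1* had 6.09 and 5.91 FPKM in OE-D7 and Con-D7, against 0.97 to 3.42 FPKM in D0 (adjusted p = 0.142), and *Pdia3* overlapped. Of 19 genes of RNA editing, decay and RNA interference, 1 was called, where 9.83% of all genes tested were. It was *Exosc3*, an exosome subunit, which fell to 16.17 and 20.24 FPKM in OE-D7 and Con-D7, against 28.82 to 33.37 FPKM in D0. *Drosha* and *Ago4* overlapped between D7 and D0, and *Rnaseh2a* had an adjusted p of 0.083. Over these 19 genes, D7 lay above all D0 values in 0 and below in 7 (36.8%), against 23% and 17.9% of all genes. With the random pair block, *Gbp2* was the only one of these called genes of the lists to keep an adjusted p under 0.05, and that of the others ranged from 0.0641 for *Xaf1* to 0.333 for *Psme2*. *Gbp2*, *Psmb8*, *Irf2* and *Ddx60* passed the filter only through their D7 values. The cell type markers described above also moved with the D7 label, and their part in these list results was not tested.

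**Figure D4:**
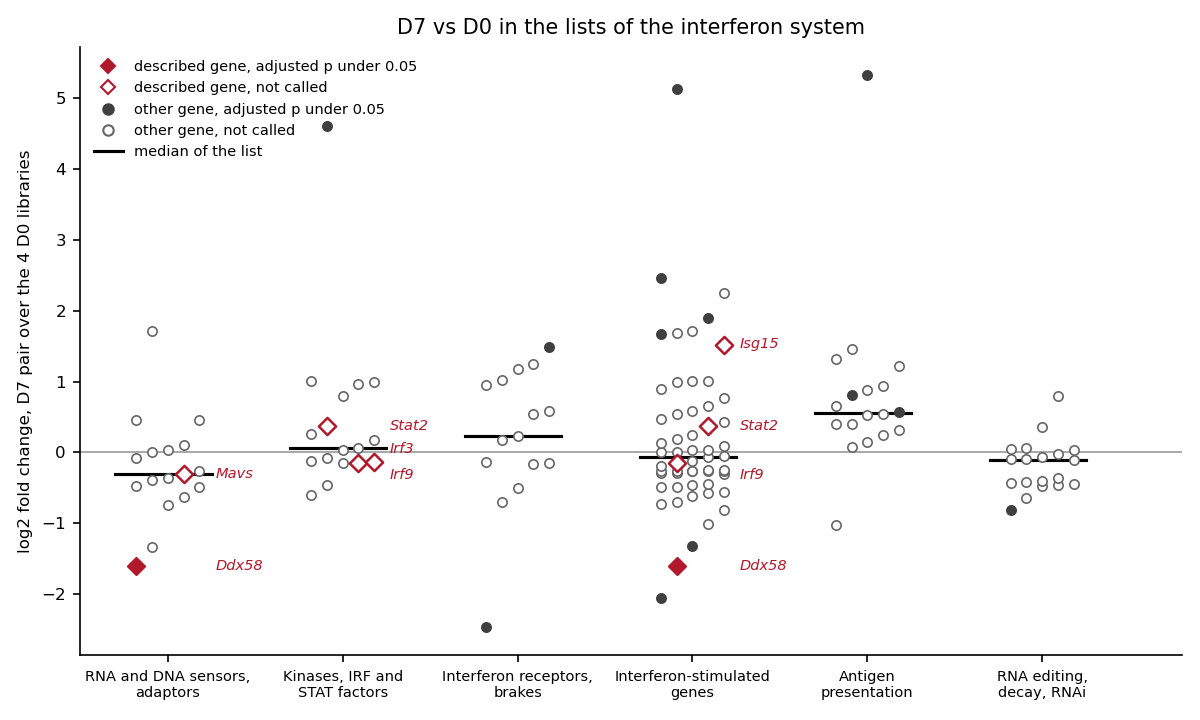
log2 fold change of the D7 pair over the 4 D0 libraries for each tested gene of 6 lists of the interferon system, with diamonds for the genes described here, filled symbols for an adjusted p under 0.05 (edgeR) and a line at each list's median. Interferon-stimulated genes lie on both sides of 0 (median -0.06), whereas 17 of 18 antigen presentation genes lie above 0.

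The mean log2(FPKM + 0.5) of *Isg15*, *Oasl2* and *Irf7* was followed most closely over the 6 libraries by *Patj* (Pearson r = 0.996), *Cacnb3* (0.993), *Letmd1* (0.992), *Trmt9b* (0.990) and *Irak2* (0.986), among 12565 genes. These points share their libraries and the D7 label, and 714 genes (5.68%) had an r above 0.9. *Patj* had 8.19 and 8.05 FPKM in OE-D7 and Con-D7, against 2.29 to 3.14 FPKM in D0.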

How the data were processed

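RNA of 6 mouse ESC libraries was sequenced on BGISEQ-500. The authors aligned reads to mm10 using Bowtie2 and used RSEM to make the deposited estimated counts, which are not scaled. They also deposited FPKM values, rounded to 2 decimals. HISAT and GRCm38.p6 stand in the submitters' processing notes, and versions and strand settings are not given in the sources used here. Counts of OE-D7 and Con-D7 carry a header for an average, although their values look like those of single libraries.

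Estimated counts were rounded and tested with edgeR 4.0.16 (TMM, quasi-likelihood F test, R 4.3.3), on genes with a mean of at least 0.5 FPKM, with Benjamini-Hochberg adjustment at 0.05 over all genes tested. OE was compared with Con in the 4 D0 libraries and, with a D7 term, in all 6. D7 was compared with D0 with a genotype term, and the OE effect in the D7 pair with that in D0 through an interaction. limma 3.58.1, DESeq2 1.42.0 and other settings were alternatives. edgeR fits were also run on simulated counts, drawn separately for each library. For D7 against D0 these counts held no variation shared within pairs, so they cannot show how its calls fare under it. Deviations from the genotype mean correlated at 0.87, 0.74 and 0.88 between OE and Con libraries of the same number over 12565 genes, so numbers were taken to pair libraries, though no source states it. D7 with D0 cannot hold a fixed block, and the pair entered limma-voom as a random block. Exact permutation tests (SciPy 1.17.1) used log2(FPKM + 0.5).

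The 9 genes and the lists were chosen with earlier results of these data known. From each list the text names called genes (at most 8 a list), and otherwise the 2 with the highest mean FPKM and the 2 with the largest D7 difference. *Ifnar1*, *Ifnar2* and the immune cell markers were named after their values were seen. Positions are from GENCODE M21 and sequences from the RefSeq promoter table of GRCm38.p6, in which all 9 genes matched by symbol. A result that needs an item withheld for evaluation is not reported here.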

Additional observations from a re-analysis of the deposited data

Results flagged for a closer look

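The OE effect on *Ddx58* had opposite signs between pairs: OE exceeded Con in pairs 1 and 2 and lay below Con in the D7 pair. The difference of the D7 pair from the other pairs was -0.43 on the log2 scale (SE 0.34) and did not pass in edgeR (adjusted p = 1.0). For *Rnf213*, an interferon-stimulated gene, that difference was -0.57 with the replicate block (SE 0.14, edgeR adjusted p = 0.0451), with 5.96 FPKM in OE-D7 against 8.24 in Con-D7, 6.70 in OE-1 against 5.95 in Con-1, and 6.17 in OE-2 against 5.84 in Con-2. For *Calr*, a chaperone of MHC class I loading, it was 0.60 with the block (SE 0.11, edgeR adjusted p = 0.00487), with 839.97 FPKM in OE-D7 against 650.78 in Con-D7, 493.70 in OE-1 against 569.38 in Con-1, and 457.32 in OE-2 against 528.12 in Con-2. Both gave an adjusted p of 1.0 without the block, and the D7 pair is 1 pair without a replicate. In the same pair the fibroblast markers summed to 433 FPKM in OE-D7 and 203 FPKM in Con-D7, the trophectoderm and epithelial markers to 1401 and 804 FPKM, and the primitive endoderm markers to 284 and 190 FPKM in the same order, and their part in these differences was not tested. No group held the 4 libraries needed to look for an outlying one.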

How the results depend on the processing

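Calls depended on how pairs were handled, and the cause of the differences below was not tested. OE against Con over 4 libraries gave 0 called genes in edgeR, 2 with DESeq2, 120 with the replicate block, 34 with DESeq2 and the block, and 32 with the block and no filter. Leaving out 1 library gave 1 (without OE-1) to 90 genes (without Con-2). Over 6 libraries the counts were 0 in edgeR, 7 with DESeq2, 1 with the replicate block, 72 with DESeq2 and the block, 19 with the block and no filter, and 0 without any 1 library. The difference between OE effects gave 0 genes, 2 with DESeq2, 199 with the block and 21 with DESeq2 and the block. None of these fits called any of the 9 genes. The settings without the filter that also change the tool, block or genotype were added after seeing the data.

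D7 against D0 gave 1357 called genes in edgeR, 2494 with DESeq2, 235 with the random replicate block, 1436 in OE libraries alone and 81 in Con libraries alone. Without the filter it gave 2761 with DESeq2, 460 with the random block, 1321 in OE libraries alone and 218 in Con libraries alone. Leaving out libraries or pairs gave 0 to 7598 genes: 0 without OE-D7, 28 without Con-D7, 365 without OE-2, 429 without OE-1, 2533 without Con-2, 4302 without pair 1 and 7598 without pair 2. No paired analysis was possible with a fixed block for D7 against D0 because the D7 label lies within pair 3. With pair 1 or pair 2 left out, the fit sets 1 pair against 1 other pair. Its calls then take OE and Con of a pair as replicates, and D7 cannot be told apart from a difference between pairs. *Ddx58* kept its direction in all settings (leave-one-out range -1.81 to -1.39) and lost its call with the random block (though not with that block and no filter), in Con libraries alone (adjusted p = 0.382, edgeR), without OE-D7 and without Con-D7. In OE libraries alone it stayed called (log2 fold change -1.82, edgeR adjusted p = 0.000161).

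Small OE differences turned sign. For *Mavs* over 4 libraries the log2 fold change was 0.007 in edgeR, -0.001 without the filter, -0.005 with DESeq2 and the block, -0.007 with the block and no filter, and -0.17 to 0.16 on leaving out 1 library. For *Stat2* it was -0.05 in edgeR, 0.027 with limma-voom, 0.017 with the block, 0.018 with DESeq2 and the block, 0.008 with the block and no filter, and -0.48 to 0.59 on leaving out 1 library. Leaving out 1 library gave *Irf3* -0.26 to 0.41 and *Irf9* -0.33 to 0.51 over 4 libraries. Over 6 libraries it gave *Ddx58* -0.094 to 0.18, *Mavs* -0.01 to 0.19, *Irf3* -0.12 to 0.27, *Irf9* -0.20 to 0.29, *Stat2* -0.22 to 0.38 and *Isg15* -0.032 to 0.60, and *Stat2* was -0.006 without the filter. The difference between OE effects on *Isg15* was 0.003, and -0.005 without the filter. For D7 against D0, leaving out libraries or pairs gave *Irf3* -0.37 to 0.19, *Irf9* -0.47 to 0.27, *Drosha* -0.80 to 0.10 and *Rnf213* -0.09 to 0.47. *Rnf213* was also -0.10 in OE libraries alone and -0.14 there without the filter, and *Pdia3* -0.018 in Con libraries alone without the filter. Depth limits *Ifih1*, *Irf7*, *Isg15* and *Oasl2*, which had 4 to 25 reads over the D0 libraries, and a count of 0 in a library allows up to 3 reads.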
